A study of Bos taurus with 86 samples.

Results

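The genes described here encode histones and the proteins that carry, mark, read and move them, measured in single bovine embryos on 2-colour cDNA arrays. Members were chosen by symbol: rows of the array whose only gene symbol belongs to the HDAC, KDM, KAT, SETD, SMARC, CHD, DNMT, ASF1, CBX, H2A or H3-3 families, or is HAT1, MPHOSPH8, ZMYND11, RBBP4, RBBP7 or a Polycomb repressive complex 2 core gene (EZH2, EED and SUZ12). This found 48 genes among the 4452 named genes of the array, spotted as 61 cDNA clones in 122 rows. EZH2, EED and SUZ12 had no such row, and all 48 genes kept the same symbol in RefSeq assembly ARS-UCD2.0 by gene identifier. Of the 48 genes, 34 had values in at least 7 embryos of every group and were tested within a fit of all 6278 measured features, and the remaining 14 are described by their missing values.

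DNA in the nucleus is wrapped around histones, and embryos replace the histones and histone marks that they inherit from sperm and oocyte while their own genome becomes active. Histone variants such as H2A.Z and H3.3 are also made outside S phase and are placed at promoters and enhancers by chaperones and remodelers. Acetyltransferases and deacetylases set and remove a mark of open chromatin, and demethylases and methyltransferases do the same for methyl marks. ATP-driven remodelers of the SWI/SNF, ISWI and CHD families slide, space or evict nucleosomes.

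The IVF group held 15 embryos, the IVD group 14 and the AI group 14, each embryo hybridised against a common reference RNA on a pair of arrays with the dyes exchanged (86 arrays). IVF was read as in vitro fertilization and AI as artificial insemination, IVD is kept as a bare group name because no label expands it, and no label gives stage, breed or number of dams. By the series title, the study concerned the effects of maturation, fertilization and culture in vitro on single-embryo expression. All values are log2 ratios of embryo over reference RNA, averaged over both arrays of an embryo after each array was centred on its median. The labels do not say which dye is the numerator, and embryo over reference is only likely: 10 of 10 measured trophectoderm markers averaged above 0 over all embryos, with a median of 2.22. With the other direction every sign given here would turn.

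Rows with a value numbered 10255 to 15300 per array in IVF, 13754 to 15618 in IVD and 10137 to 14119 in AI, so the IVD arrays were the most complete. The median of the trophectoderm markers per embryo was 1.44 to 2.34 in IVF, 1.1 to 3.14 in IVD and 1.85 to 2.83 in AI. Of the 10 trophectoderm markers, none was higher and 4 were lower in IVF than in AI (median difference -0.273), 2 were higher and 5 lower in IVD than in AI (-0.417), and 3 were higher and 4 lower in IVF than in IVD (-0.0751), and their part in the results was not tested. No inner cell mass marker (of 5) and no oviduct or endometrium marker (of 6) was measured, so these cells could not be checked. Of 10 cumulus and granulosa markers, 4 were measured, 1 averaged above 0, and 3 were higher in IVF than in AI. Their per-embryo median was -0.324 to 0.26 in IVF, -0.409 to 0.172 in IVD and -0.753 to 0.0201 in AI, and their part in the results was not tested. Of 9 blood markers, only CD14 was measured (mean -0.194). The dye bias of an embryo, the mean of its 2 arrays before their signs are turned, separated the embryos into clusters that partly followed the groups: 13 of 15 IVF, 0 of 14 IVD and 9 of 14 AI embryos fell in one of 3 Ward clusters, 1 IVF, 14 IVD and 5 AI embryos in another, and IVF embryo 7 stood alone. Results were therefore also computed within these clusters and for each dye orientation. Because whole embryos were profiled, fewer cells of a type and less RNA per cell cannot be told apart.

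In IVF against AI embryos, 5 of the 34 chromatin genes were higher and 12 lower at an adjusted p under 0.05 (limma). Over all 6278 features tested, 19.9% were higher and 17.7% lower. The members' median log2 difference was -0.156, against 0.0406 over all features, and 35.3% of the members were lower. In IVD against AI embryos, 7 members were higher and 7 lower (20.6% each), where 25.5% of all features were higher and 21% lower, so neither share stood above the background. The median difference was -0.016 in the members and 0.0579 over all features. In IVF against IVD embryos, 7 members were higher and 13 lower (38.2% lower), where 22.3% of all features were higher and 25.2% lower. The median difference was -0.161 in the members and -0.0088 over all features. A difference among the groups passed the F-test in 24 of the 34 members (70.6%), close to the 66.8% of all features. The 3 comparisons share their embryos, so they are not independent of each other. Counts by role rest on 2 to 6 measured genes each, describe those genes only, and are to be read against the same all-feature shares.

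**Figure D1:**
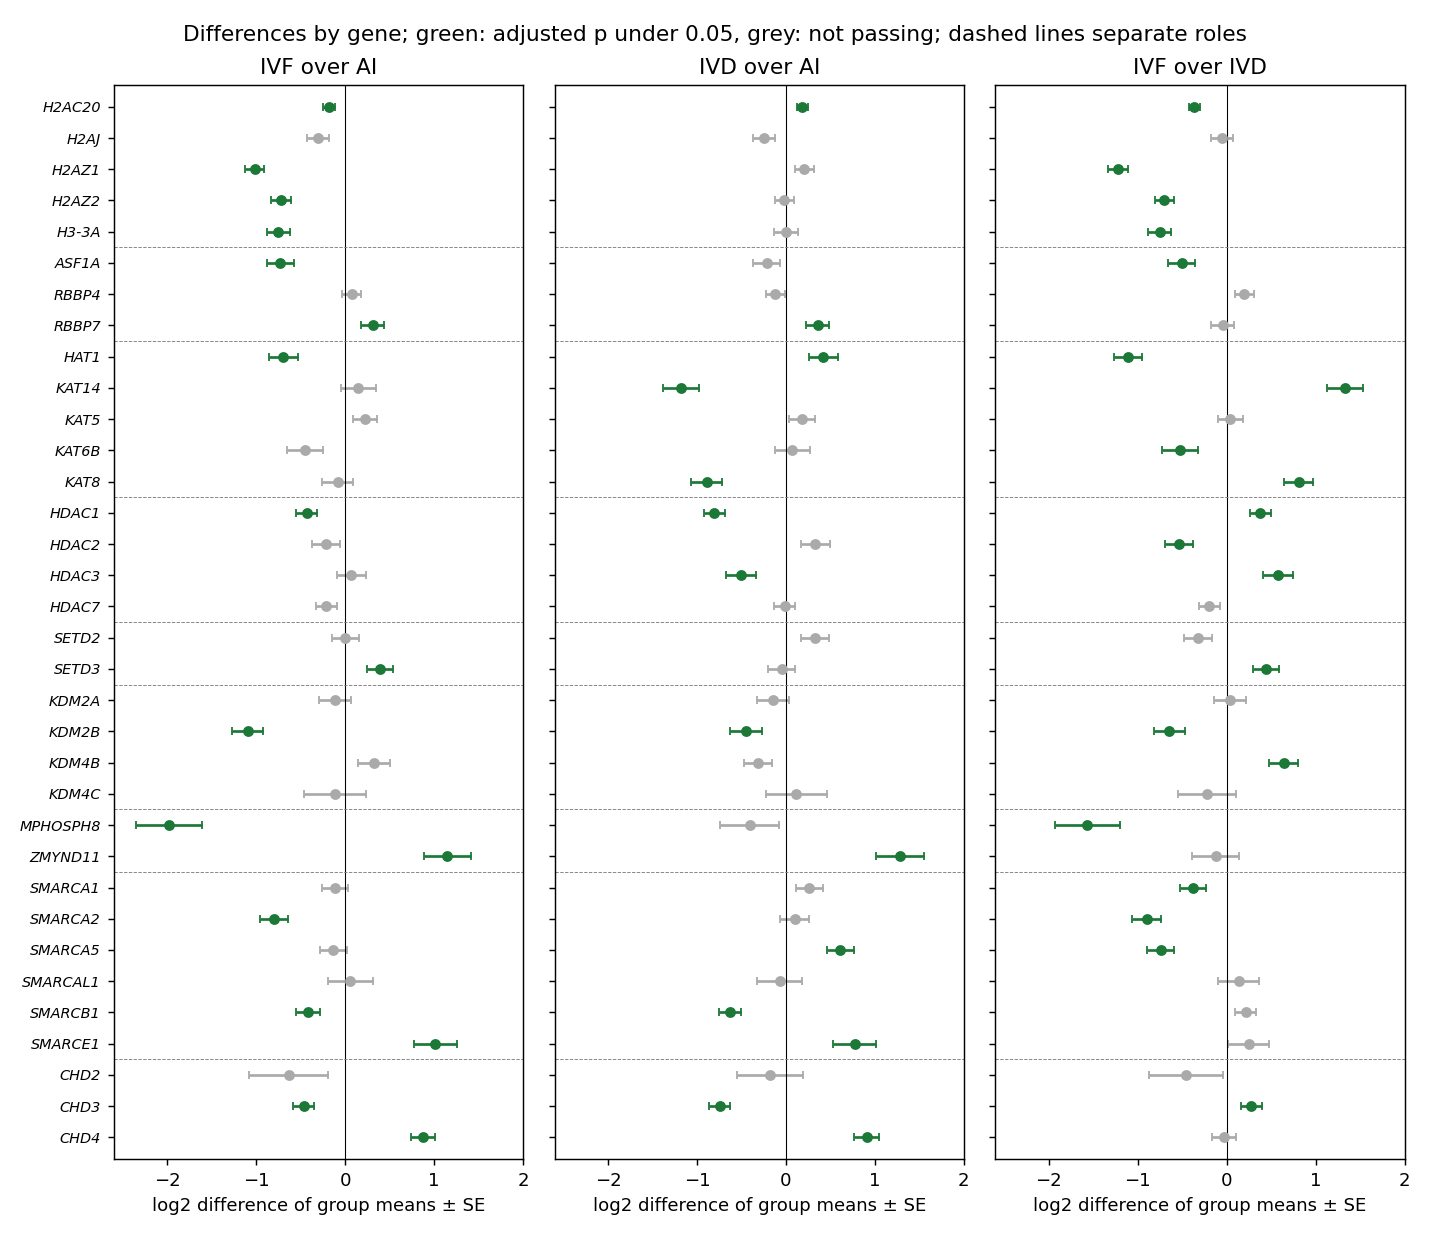
Log2 differences between group means (x axis, ± SE) of the 34 measured chromatin genes (rows, in order of role, dashed lines between roles) for IVF over AI, IVD over AI and IVF over IVD. Green points passed an adjusted p of 0.05 and grey points did not; H2AZ1, H2AZ2 and H3-3A lie to the left in both panels with IVF on top, while KAT14 lies to the left in IVD over AI at -1.18 and to the right in IVF over IVD at 1.33.

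Read by group rather than by comparison, 9 members (26.5%) were lower in IVF embryos than in both other groups, against 9.68% of all features: H2AC20, H2AZ1, H2AZ2, H3-3A, ASF1A, HAT1, KDM2B, MPHOSPH8 and SMARCA2. SETD3 was the 1 member higher in IVF than in both other groups (2.94%, against 7.85% of all features). In IVD embryos, 5 members were lower than in both other groups (KAT14, KAT8, HDAC1, HDAC3 and CHD3) and 3 were higher (H2AC20, HAT1 and SMARCA5). These are 14.7% and 8.82% of the members, against 12.7% and 14.1% of all features. In AI embryos, 4 members were lower than in both other groups (CHD4, RBBP7, SMARCE1 and ZMYND11) and 4 were higher (KDM2B, CHD3, HDAC1 and SMARCB1). These are 11.8% each, against 9.06% and 7.15% of all features. No pairwise comparison passed for 9 members (H2AJ, RBBP4, KAT5, HDAC7, SETD2, KDM2A, KDM4C, SMARCAL1 and CHD2).

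**Figure D2:**
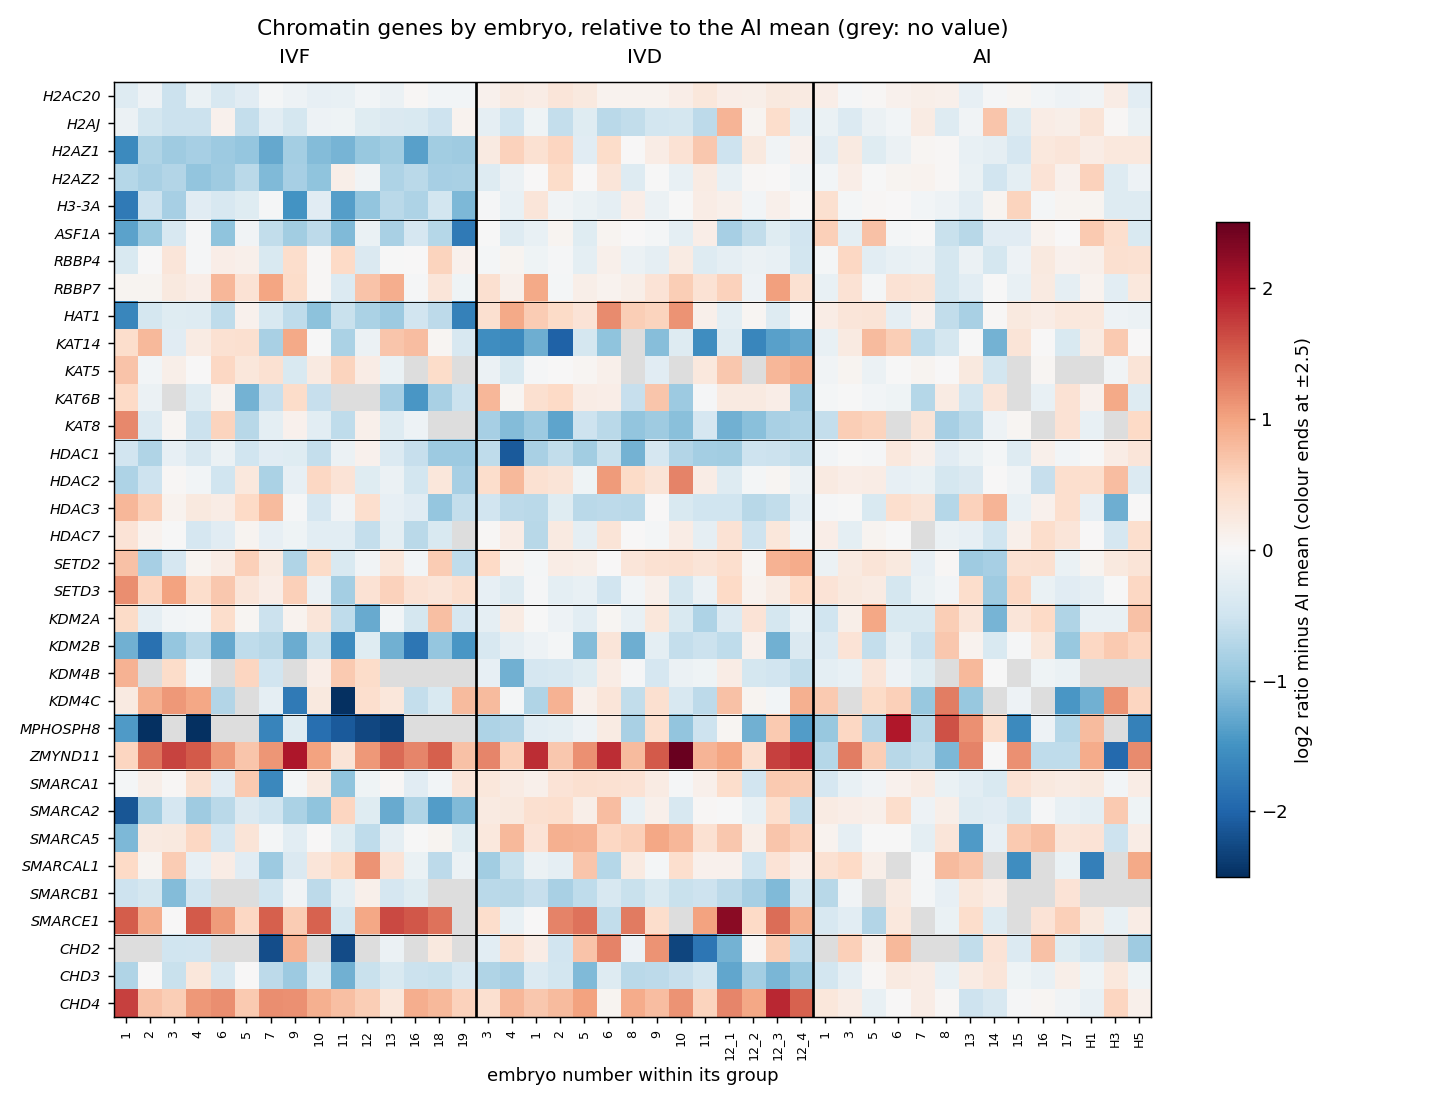
Log2 ratio of each of the 34 chromatin genes (rows, by role) in each embryo (columns, IVF left, IVD centre, AI right), minus the mean of the gene over AI embryos. Blue is below and red above the AI mean, the colour scale ends at ±2.5 and grey cells have no value; the H2AZ1 row is blue in all 15 IVF embryos and the CHD4 row is red in all of them.

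Of the 5 measured histone genes, 4 were lower in IVF than in AI embryos and the same number was lower in IVF than in IVD embryos, with median differences of -0.719 and -0.7016, while 1 was higher and none lower in IVD than in AI. Of all features, 17.7% were lower in IVF than in AI and 25.2% lower in IVF than in IVD. H2AC20 passed in only 7 of 14 alternatives for IVF over AI, and of 4 further histone genes outside the rule (CENPA, H2B, H2BC21 and MACROH2A1) only H2BC21 was lower in IVF than in AI. H2AZ1 encodes the major form of H2A.Z, a variant of nucleosomes flanking transcription start sites. Its log2 ratio ran from -1.21 through a median of -0.52 to -0.37 in IVF embryos, from -0.13 through 0.62 to 1.07 in IVD embryos and from -0.03 through 0.43 to 0.68 in AI embryos. Every IVF embryo lay below every embryo of both other groups. The difference was -1.02 ± 0.11 for IVF over AI (SE, adjusted p = 1.34e-09), which is 0.494 of the AI ratio. It was -1.22 ± 0.11 for IVF over IVD (adjusted p = 1.69e-12). Groups did not overlap in 0.542% of all features for IVF against AI and in 3.28% for IVF against IVD; among the members H2AZ1 was the 1 such gene in IVF against AI, and H2AZ1 and H2AC20 were such genes in IVF against IVD. H2AZ1 was also 1 of 4 members with more than 1 clone measured, and its clones differed by -1.0 ± 0.10 and -1.03 ± 0.13 for IVF over AI.

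H2AZ2 encodes the second H2A.Z protein from a separate gene. It ran from -1.68 through -1.39 to -0.42 in IVF, from -0.90 through -0.58 to -0.12 in IVD and from -1.05 through -0.56 to 0.01 in AI. Of the 15 IVF embryos, 13 lay below the lowest IVD and the lowest AI embryo. It was lower in IVF by a difference of -0.72 ± 0.11 over AI (adjusted p = 1.65e-06) and -0.70 ± 0.11 over IVD (adjusted p = 7.94e-07). Because H2AZ1 and H2AZ2 are similar in coding sequence, cDNA spots of either may bind transcripts of both, and how far was not tested.

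H3-3A is one of a pair of genes for H3.3, the H3 variant laid down independently of replication. It ran from -0.79 through 0.31 to 0.94 in IVF, from 0.74 through 0.96 to 1.28 in IVD and from 0.65 through 0.96 to 1.53 in AI. IVF embryos were spread widely, with an SD of 0.51 against 0.16 in IVD and 0.25 in AI, and 11 of 15 lay below all AI embryos. The difference was -0.75 ± 0.13 over AI (adjusted p = 1.33e-05) and -0.75 ± 0.13 over IVD (adjusted p = 5.02e-06), and IVD differed from AI by 0.00 ± 0.13. On the Cy3-labelled embryo arrays alone it was -0.49 over AI (adjusted p = 0.00169) and -0.50 over IVD (adjusted p = 0.000885). H2AC20, a core H2A gene, differed by small amounts: it ran from -0.54 through -0.14 to 0.03 in IVF, from 0.09 through 0.18 to 0.30 in IVD and from -0.26 through 0.02 to 0.19 in AI. All IVF embryos lay below all IVD embryos, and AI embryos overlapped both. It was lower in IVF than in IVD (-0.36 ± 0.06, adjusted p = 5.37e-06) and higher in IVD than in AI (0.18 ± 0.06, adjusted p = 0.0162). Its difference over AI in IVF (-0.18, adjusted p = 0.02) lost its call within the shared dye-bias cluster (-0.14, adjusted p = 0.307), and the IVD over AI call was lost on Cy3-labelled embryo arrays (0.04, adjusted p = 0.656). H2AJ, a mammalian H2A variant, missed the threshold for IVF over AI (-0.30 ± 0.12, adjusted p = 0.0515).

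**Figure D3:**
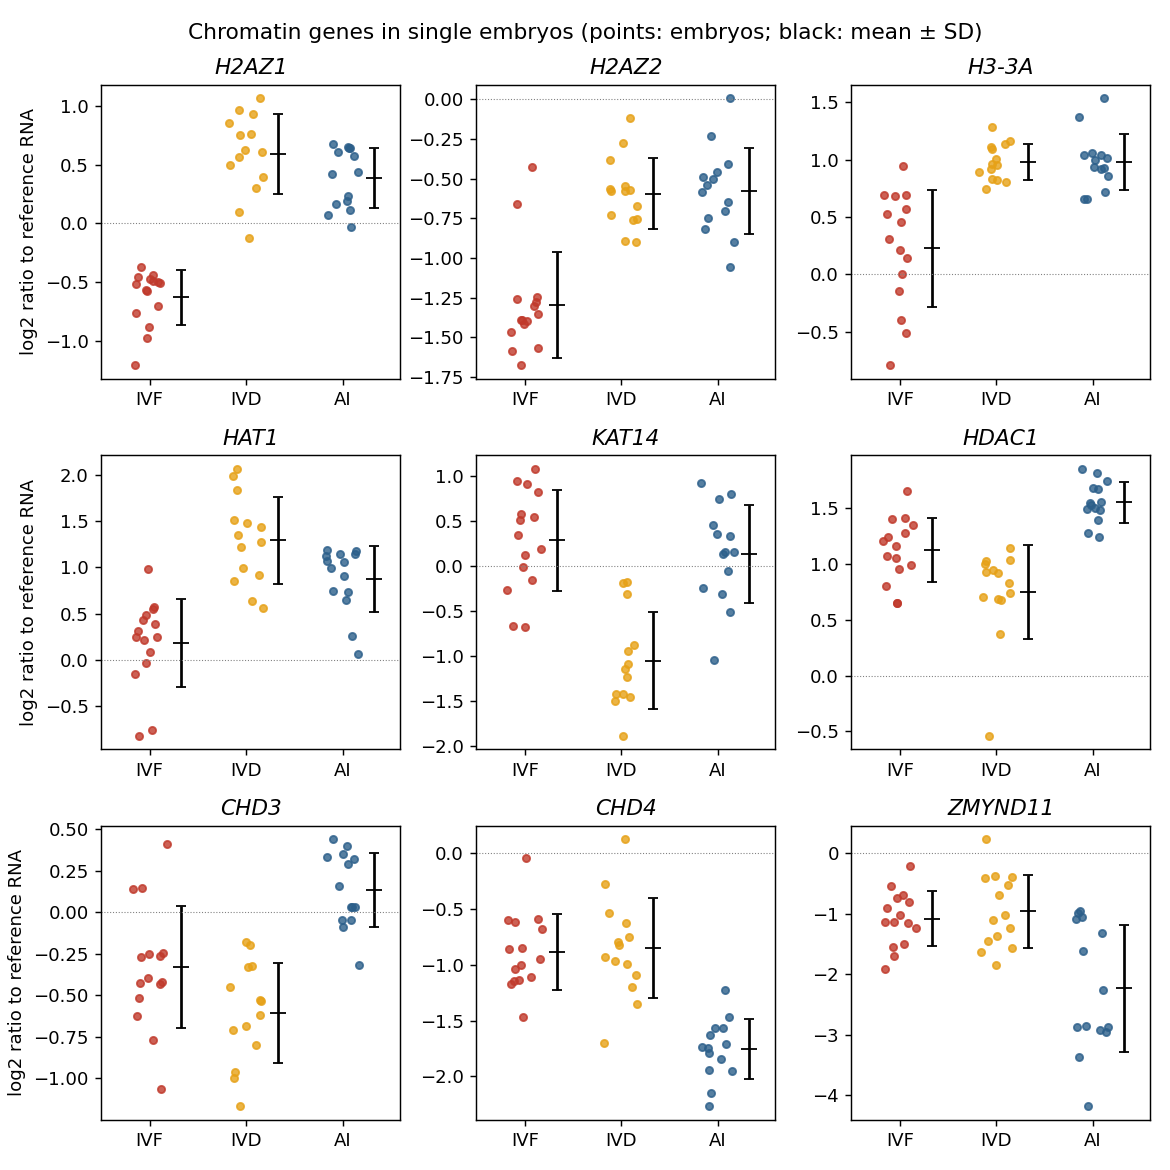
Log2 ratio to the reference RNA (y axis, own scale per panel, dotted line at 0) of 9 chromatin genes in each embryo (points) of the IVF, IVD and AI groups, with the mean ± SD in black. The IVF points of H2AZ1 lie between -1.21 and -0.37, under all points of the other groups, and the AI points of CHD4 lie between -2.27 and -1.23, under most points of IVF and IVD.

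Among histone-binding proteins, ASF1A was lower in IVF than in both other groups, and RBBP7 was higher than in AI in IVD and, just inside the threshold, in IVF. ASF1A hands H3 and H4 to the assembly factors of replication and of H3.3 deposition. It ran from -0.77 through 0.28 to 0.96 in IVF, from 0.16 through 0.77 to 1.16 in IVD and from 0.29 through 0.96 to 1.72 in AI. The groups overlapped, with 8 of 15 IVF embryos below all AI embryos. The difference was -0.73 ± 0.15 over AI (adjusted p = 2.4e-04) and -0.51 ± 0.15 over IVD (adjusted p = 0.00545). RBBP7 and its paralog RBBP4 are WD-repeat proteins of deacetylase and Polycomb complexes, and RBBP7 also partners HAT1. RBBP7 averaged 0.34 ± 0.40 in 15 IVF, 0.39 ± 0.34 in 14 IVD and 0.03 ± 0.27 in 14 AI embryos (SD). Its difference over AI was 0.31 ± 0.13 in IVF (adjusted p = 0.0499) and 0.36 ± 0.13 in IVD (adjusted p = 0.0227). The IVF call of RBBP7 held in only 4 of 14 alternatives, with differences of 0.21 to 0.41 and adjusted p of 0.00691 to 0.467, and leaving out IVF embryo 7 ended it (0.26, adjusted p = 0.0898). Within the dye-bias cluster of the IVD embryos RBBP7 did not pass in IVD over AI (0.20, adjusted p = 0.359). Its clones gave 0.36 ± 0.14 (adjusted p = 0.0381) and 0.27 ± 0.13 (adjusted p = 0.0868) for IVF over AI. RBBP4 passed in none of the comparisons (0.07 ± 0.10 for IVF over AI).

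Of 5 acetyltransferase genes, 1 was lower in IVF than in AI, and in IVD against AI 2 were lower and 1 higher. HAT1 acetylates newly made histone H4 before it enters chromatin. It ran from -0.82 through 0.24 to 0.99 in IVF, from 0.56 through 1.31 to 2.07 in IVD and from 0.06 through 1.03 to 1.19 in AI. Most IVF embryos (13 of 15) lay below every IVD embryo, and 9 of 14 IVD embryos lay above every AI embryo. The difference was -0.69 ± 0.16 for IVF over AI (adjusted p = 7.95e-04) and -1.11 ± 0.16 for IVF over IVD (adjusted p = 2.42e-07). The IVD over AI difference of 0.42 ± 0.16 (adjusted p = 0.0329) was 0.28 within the dye-bias cluster of the IVD embryos (adjusted p = 0.301).

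KAT14 is a subunit of the ATAC acetyltransferase complex. It ran from -0.68 through 0.34 to 1.08 in IVF, from -1.88 through -1.14 to -0.18 in IVD and from -1.04 through 0.15 to 0.92 in AI. IVD embryos lay low, 8 of 13 under every AI embryo, while IVF and AI embryos covered much the same range. The difference was -1.18 ± 0.20 for IVD over AI (adjusted p = 8.52e-06), 0.441 of the AI ratio, and 1.33 ± 0.20 for IVF over IVD (adjusted p = 5.91e-07). KAT8, the MOF acetyltransferase of histone H4, was placed alike: it ran from -0.97 through -0.52 to 0.92 in IVF, from -1.61 through -1.18 to -0.70 in IVD and from -1.12 through -0.24 to 0.34 in AI. Of the IVD embryos, 8 of 14 lay below all 11 AI embryos with a value. Its difference was -0.89 ± 0.17 for IVD over AI (adjusted p = 7.08e-05) and 0.81 ± 0.17 for IVF over IVD (adjusted p = 1.18e-04). With the deposited values taken as given, the IVF over IVD difference of KAT8 was 0.46 and did not pass (adjusted p = 0.0708).

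KAT6B, the MORF acetyltransferase, was lower in IVF than in IVD (-0.52 ± 0.20, adjusted p = 0.0275). This value differed between dye orientations, at -1.16 with the embryo in Cy3 and 0.11 with the embryo in Cy5 (adjusted p = 0.701). KAT5, the catalytic subunit of the TIP60 complex, passed in none of the comparisons, with 0.22 ± 0.14 for IVF over AI and 0.18 ± 0.14 for IVD over AI.

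Of 4 deacetylase genes, HDAC1 and HDAC3 were lower in IVD than in both other groups, and HDAC2 was lower in IVF than in IVD. HDAC1 and HDAC2 are interchangeable in many settings as the catalytic subunits of the Sin3, NuRD and CoREST complexes. HDAC1 ran from 0.65 through 1.16 to 1.66 in IVF, from -0.54 through 0.88 to 1.14 in IVD and from 1.24 through 1.54 to 1.85 in AI. Every IVD embryo lay below every AI embryo, and IVF embryos overlapped both groups. IVD and AI embryos did not overlap, in either direction, in 2.84% of all features. HDAC1 was lower in IVD than in AI by a difference of -0.81 ± 0.12 (adjusted p = 5.81e-07) and lower in IVF than in AI by -0.43 ± 0.12 (adjusted p = 0.00386). It was higher in IVF than in IVD by 0.38 ± 0.12 (adjusted p = 0.00793), a call lost with the values as given (0.13, adjusted p = 0.514). HDAC2 averaged -0.89 ± 0.44 in 15 IVF, -0.34 ± 0.46 in 14 IVD and -0.67 ± 0.38 in 14 AI embryos (SD). It was lower in IVF than in IVD (-0.54 ± 0.16, adjusted p = 0.00411), with 0.33 ± 0.16 for IVD over AI (adjusted p = 0.0854). HDAC1 and HDAC2 thus had opposite signs in both comparisons that involve IVD, although the difference between the 2 genes was not tested.

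HDAC3, the enzyme of the NCoR and SMRT corepressors, ran from -1.47 through -0.40 to 0.33 in IVF, from -1.19 through -1.06 to -0.50 in IVD and from -1.72 through -0.50 to 0.36 in AI. The IVD values were packed into a narrow low range inside the spread of both other groups. Its difference was -0.50 ± 0.17 for IVD over AI (adjusted p = 0.0121) and 0.58 ± 0.16 for IVF over IVD (adjusted p = 0.00355), and neither passed with the values as given (-0.25, adjusted p = 0.251, and 0.33, adjusted p = 0.123). HDAC7, a class IIa deacetylase, passed in none of the comparisons, with -0.21 ± 0.12 for IVF over AI.

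Of the methyl-mark enzymes, KDM2B was the one lower in IVF against both other groups and lower in IVD against AI. KDM2B binds unmethylated CpG islands and brings a variant Polycomb complex 1 there. It ran from 0.26 through 0.94 to 1.83 in IVF, from 0.92 through 1.75 to 2.43 in IVD and from 1.19 through 2.15 to 2.81 in AI. IVF embryos were lowest, IVD embryos lay between and AI embryos were highest, and neighbouring groups overlapped. The difference was -1.10 ± 0.18 for IVF over AI (adjusted p = 4.88e-06) and -0.65 ± 0.18 for IVF over IVD (adjusted p = 0.00225). The difference of IVD over AI (-0.45 ± 0.18, adjusted p = 0.0361) was -0.17 within the dye-bias cluster of the IVD embryos (adjusted p = 0.55). Its paralog KDM2A passed in none of the comparisons (-0.11 ± 0.18 for IVF over AI), nor did KDM4C, a demethylase of heterochromatic H3 marks, whose SD was 1.09 in IVF.

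KDM4B, its close relative, averaged -0.72 ± 0.43 in 8 IVF, -1.36 ± 0.35 in 14 IVD and -1.05 ± 0.35 in 9 AI embryos (SD). It was higher in IVF than in IVD by 0.64 ± 0.16 (adjusted p = 0.00186), a value of 0.02 with the embryo in Cy3 and of 1.26 with the embryo in Cy5. SETD3, whose SET domain methylates actin rather than a histone, was higher in IVF than in AI (0.39 ± 0.15, adjusted p = 0.0322) and than in IVD (0.44 ± 0.15, adjusted p = 0.012). With the values as given, SETD3 did not pass over AI, although its difference was much the same (0.40, adjusted p = 0.177), nor over IVD, where it was smaller (0.19, adjusted p = 0.492). SETD2, which writes a trimethyl mark of transcribed gene bodies, averaged -0.46 ± 0.51 in 15 IVF, -0.14 ± 0.29 in 14 IVD and -0.46 ± 0.42 in 14 AI embryos (SD) and passed in none of the comparisons.

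Both measured readers had large differences and wide spreads. MPHOSPH8 is the chromodomain subunit of the HUSH complex, which silences retroelements in heterochromatin. It ran from -1.97 through -0.85 to 0.93 in 9 IVF embryos, from -0.14 through 0.86 to 1.91 in 14 IVD embryos and from -0.43 through 1.13 to 3.26 in 13 AI embryos. Of the 9 IVF embryos with a value, 8 lay below all IVD embryos and 6 below all AI embryos. The difference was -1.98 ± 0.37 for IVF over AI (adjusted p = 7.91e-05) and -1.57 ± 0.37 for IVF over IVD (adjusted p = 5.73e-04). Of its 2 rows, 1 passed the filter. The spots of that row had no value in 26.7% of cases in IVF, 0% in IVD and 3.57% in AI. The row that did not pass is left out of these shares.

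ZMYND11 reads a methyl mark of transcribed gene bodies on H3.3. It ran from -1.91 through -1.14 to -0.22 in IVF, from -1.84 through -1.06 to 0.23 in IVD and from -4.18 through -2.55 to -0.95 in AI. The AI embryos reached far lower than the others, with 8 of 14 below every IVF embryo, but overlapped them at the top. The difference over AI was 1.15 ± 0.26 in IVF (adjusted p = 7.06e-04) and 1.28 ± 0.27 in IVD (adjusted p = 1.57e-04), while IVF over IVD was -0.13 ± 0.26.

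Of 6 SWI/SNF and ISWI genes, 1 was higher and 2 lower in IVF than in AI, 2 higher and 1 lower in IVD than in AI, and 3 lower in IVF than in IVD. Of all features, 19.9% were higher and 17.7% lower in IVF than in AI, 25.5% and 21% in IVD than in AI, and 25.2% were lower in IVF than in IVD, so that with 6 genes a share above or below these rests on 1 or 2 genes. SMARCA2, the BRM ATPase of SWI/SNF complexes, ran from -2.76 through -1.41 to -0.09 in IVF, from -1.22 through -0.49 to 0.14 in IVD and from -1.07 through -0.69 to 0.03 in AI. Most IVF embryos (11 of 15) lay below every AI embryo. The difference was -0.80 ± 0.16 over AI (adjusted p = 1.6e-04) and -0.90 ± 0.16 over IVD (adjusted p = 1.33e-05). With the embryo in Cy5 alone, IVF over IVD was -0.46 (adjusted p = 0.0761).

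SMARCE1, a DNA-binding core subunit of the same complexes, ran from -1.18 through 0.47 to 0.92 in IVF, from -1.35 through 0.14 to 1.51 in IVD and from -1.47 through -0.73 to -0.16 in AI. Of the 14 IVF embryos with a value, 11 lay above all AI embryos. The difference over AI was 1.02 ± 0.24 in IVF (adjusted p = 9.52e-04) and 0.77 ± 0.24 in IVD (adjusted p = 0.00868). SMARCB1, another core subunit, averaged -0.15 ± 0.31 in 11 IVF, -0.36 ± 0.19 in 14 IVD and 0.27 ± 0.34 in 8 AI embryos (SD). It was lower than in AI by -0.42 ± 0.13 in IVF (adjusted p = 0.0137) and -0.63 ± 0.13 in IVD (adjusted p = 1.46e-04). The IVF value was -0.80 with the embryo in Cy3 and -0.04 with the embryo in Cy5 (adjusted p = 0.925), and the IVD value was -0.34 as given (adjusted p = 0.126).

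SMARCA5 and SMARCA1 are the ISWI ATPases, which space nucleosomes. SMARCA5 ran from -0.52 through 0.54 to 1.11 in IVF, from 0.75 through 1.23 to 1.56 in IVD and from -0.81 through 0.64 to 1.34 in AI. IVD embryos were high and tight, and 11 of 15 IVF embryos lay below all of them. The difference was 0.61 ± 0.16 for IVD over AI (adjusted p = 0.00131) and -0.74 ± 0.15 for IVF over IVD (adjusted p = 9.07e-05), with -0.13 ± 0.15 for IVF over AI. SMARCA1 was lower in IVF than in IVD (-0.37 ± 0.15, adjusted p = 0.0311), and the call was lost without IVF embryo 7 (-0.27, adjusted p = 0.0629). SMARCAL1, a helicase that rewinds DNA at stalled forks, passed in none of the comparisons (0.06 ± 0.25 for IVF over AI).

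CHD3 and CHD4 are alternative ATPases of the NuRD complex, and they had opposite signs over AI. CHD4 ran from -1.47 through -0.95 to -0.04 in IVF, from -1.70 through -0.87 to 0.13 in IVD and from -2.27 through -1.74 to -1.23 in AI. Of the IVF embryos, 14 of 15 lay above every AI embryo, as did 12 of 14 IVD embryos. The difference over AI was 0.87 ± 0.13 in IVF (adjusted p = 2.46e-06) and 0.91 ± 0.14 in IVD (adjusted p = 7.25e-07). Both of its clones gave it, at 0.87 ± 0.13 and 0.89 ± 0.15 for IVF over AI. Its clones differed in sign only for IVF over IVD, at -0.12 and 0.06, where neither passed.

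CHD3 ran from -1.06 through -0.40 to 0.41 in IVF, from -1.17 through -0.58 to -0.18 in IVD and from -0.31 through 0.10 to 0.44 in AI. Most IVD embryos (12 of 14) and 8 of 15 IVF embryos lay below every AI embryo. The difference over AI was -0.47 ± 0.12 in IVF (adjusted p = 0.00162) and -0.74 ± 0.12 in IVD (adjusted p = 2.12e-06). CHD3 in IVF over IVD (0.28 ± 0.12, adjusted p = 0.0475) lost its call in 6 of 10 alternatives, and its IVF over AI value was -0.30 with the embryo in Cy5 (adjusted p = 0.121). CHD2 was measured in 7 IVF, 14 IVD and 10 AI embryos, passed in none of the comparisons, and had an SD of 1.18 in IVF.

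The scaling of the arrays bore on the IVD comparisons. Without centring of the arrays, all features together had a median of 0.317 for IVD over AI and -0.266 for IVF over IVD. Of the members past the threshold in IVD over AI, 73.3% were then higher (11 higher, 4 lower), against 50% after centring. Over all features past the threshold the share was 85.3%, against 54.9% after centring. In IVF over IVD the members' share was 6.25% (1 higher, 15 lower), against 35% after centring, and that of all features was 17.5%, against 47%. KAT14 was the 1 member higher in IVF than in IVD under both scalings. Uncentred differences for IVD over AI were 0.44 for H2AC20, 0.67 for HAT1, 0.61 for RBBP7, -0.49 for CHD3 and -0.19 for KDM2B, of which KDM2B did not pass (adjusted p = 0.489). For IVF over IVD they were -0.61 for H2AC20, -0.62 for SMARCA1 and 0.24 for KDM4B, of which KDM4B did not pass (adjusted p = 0.406). Without centring, 11 of 14 members passed again for IVD over AI, all but HDAC3, KDM2B and SMARCB1. For IVF over IVD 14 of 20 did, all but CHD3, HDAC1, HDAC3, KAT8, KDM4B and SETD3. CHD3 was then 0.03 for IVF over IVD (adjusted p = 0.912). The signs of all members past the threshold stayed the same in every comparison under these 2 scalings.

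IVF over AI was also computed by dye-bias cluster. Between the 13 IVF and 9 AI embryos of the shared Ward cluster, 13 of the 17 members past the threshold passed again, and all 17 had the same sign. H2AC20, RBBP7, SETD3 and SMARCB1 did not pass there. Their differences were -0.14, 0.34, 0.44 and -0.56 within the cluster, against -0.18, 0.31, 0.39 and -0.42 over all embryos. Why these calls were lost was not tested. When clusters came from average linkage instead, where 11 IVF embryos shared a cluster with 1 AI embryo, and entered the fit as a block, 5 passed: H2AZ1, H2AZ2, HAT1, HDAC1 and CHD4. MPHOSPH8 was then -1.30 (adjusted p = 0.474), SMARCE1 0.56 (adjusted p = 0.351), KDM2B -0.79 (adjusted p = 0.0908), H3-3A -0.75 (adjusted p = 0.0652), SMARCA2 -0.76 (adjusted p = 0.0656), ASF1A -0.84 (adjusted p = 0.0654) and ZMYND11 1.11 (adjusted p = 0.138). H2AZ1, H2AZ2, HAT1 and CHD4 passed in every alternative that tested them for IVF over AI. CHD4 had no row measured in every embryo and so was not tested in that alternative.

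**Figure D4:**
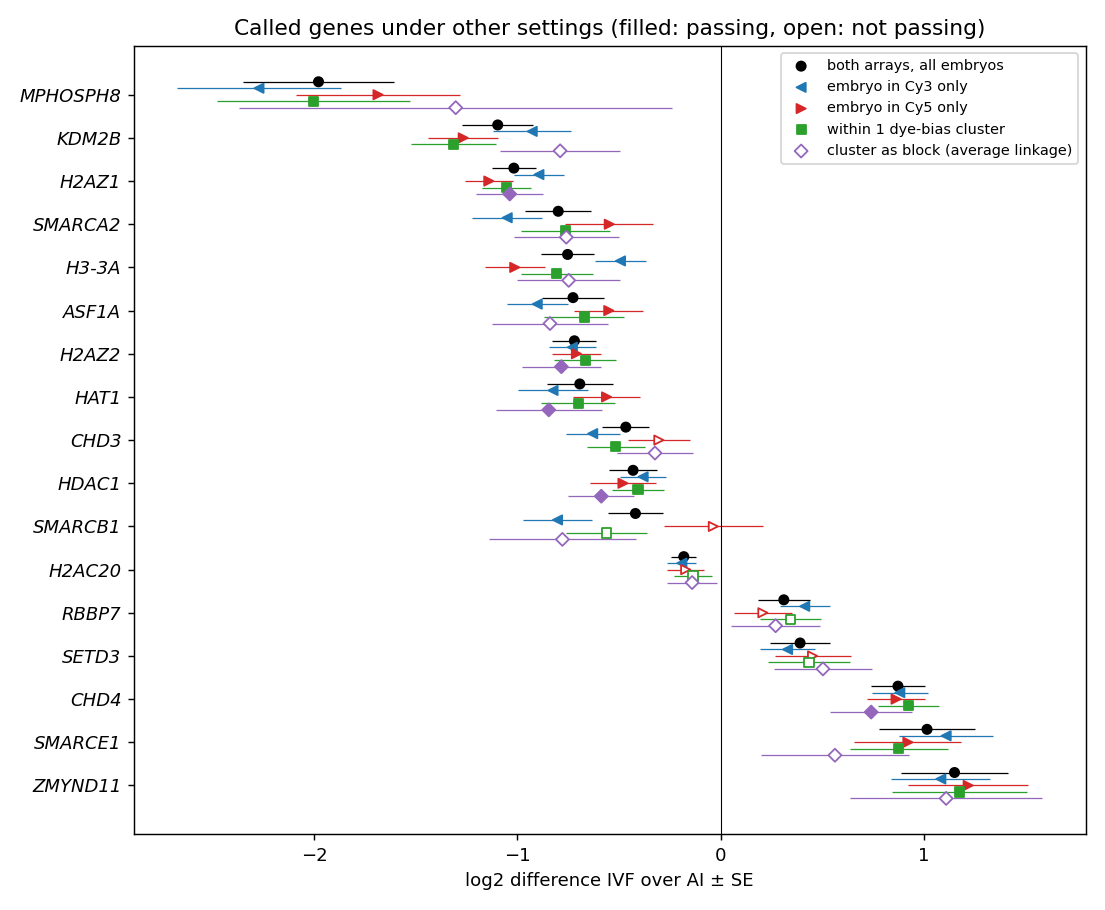
Log2 difference IVF over AI (x axis, ± SE) of the 17 chromatin genes that passed with both arrays and all embryos (black circles), recomputed for each dye orientation (triangles), within 1 dye-bias cluster of 13 IVF and 9 AI embryos (squares) and with average-linkage clusters as a block (diamonds). Filled symbols passed an adjusted p of 0.05 and open symbols did not. H2AZ1, H2AZ2, HAT1, HDAC1 and CHD4 are filled in all settings drawn, and all points of a gene lie on one side of 0.

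The 14 members that did not pass the filter on missing values include the de novo DNA methyltransferase DNMT3A, the deacetylases HDAC5 and HDAC10, the demethylases KDM4A, KDM5B and KDM8, the Polycomb readers CBX6 and CBX8, the SWI/SNF scaffolds SMARCC1 and SMARCC2, and CHD7, CHD8, SETD5 and SMARCAD1. Their spots lacked a value in 33.3% to 93.3% of cases in IVF (median 66.7%), 0% to 24.1% in IVD (median 4.46%) and 23.2% to 98.2% in AI (median 63.8%). In 13 of the 14 the shares of IVF and AI differed by at most 17.1 percentage points. DNMT3A, singled out after its values were seen, differed by 55.1 points, with no value on 78.3% of its spots in IVF, 0% in IVD and 23.2% in AI. Both arrays gave a value for it in 1 IVF, 14 IVD and 8 AI embryos, with a median of 1.76 in IVD and 3.23 in AI. No label states when a spot was left empty, so these shares are not levels.

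**Figure D5:**
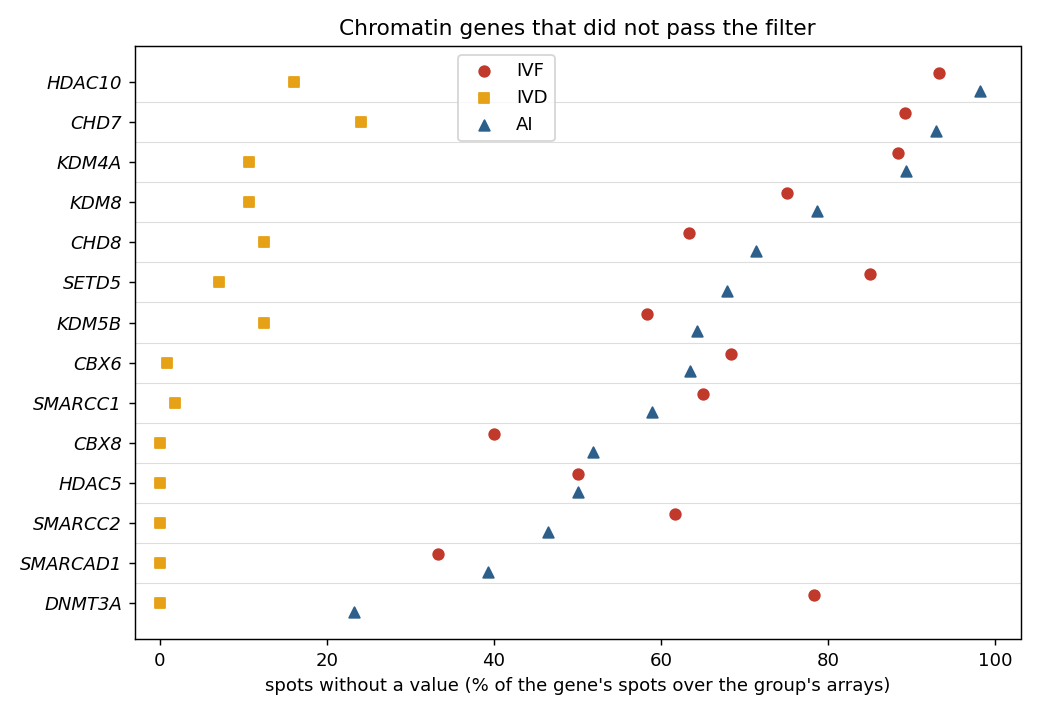
Share of spots without a value (x axis, % of a gene's spots over all arrays of a group) for the 14 chromatin genes that did not pass the filter, in IVF (circles), IVD (squares) and AI (triangles). IVD shares stay at or under 24.1%; DNMT3A is at 78.3% in IVF and 23.2% in AI.

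Other chromatin genes outside the rule were listed by function, and 69 of 99 on the array were measured. In IVF against AI, 7 were higher and 14 lower, in IVD against AI 9 and 17, and in IVF against IVD 20 and 20, with medians of -0.0273, 0.0062 and -0.029. The share that passed was 30.4%, 37.7% and 58% of the 69 genes, against 37.7%, 46.5% and 47.6% of all features. It lay below the background over AI in both IVF and IVD, and above it in IVF against IVD. Of 7 histone chaperone and nucleosome assembly genes, 4 were lower and none higher in IVF than in AI, where 17.7% of all features were lower. In IVF against IVD, 4 were lower and 2 higher, where 25.2% were lower and 22.3% higher, and in IVD against AI 3 were lower, where 21% were. With 7 genes these counts describe the genes and not a wider group. NASP, a chaperone of linker and H3 histones, differed by -1.31 ± 0.19 for IVF over AI (adjusted p = 1.38e-06) and -1.0 ± 0.19 for IVF over IVD (adjusted p = 3.79e-05). SET, an inhibitor of histone acetylation, differed by -0.84 ± 0.13 for IVF over AI (adjusted p = 1.95e-06) and -1.12 ± 0.13 for IVF over IVD (adjusted p = 1.23e-09). SSRP1, a subunit of the FACT complex, was lower than in AI in IVD by -1.07 ± 0.14 (adjusted p = 3.49e-08) and in IVF by -0.675 ± 0.14 (adjusted p = 1.45e-04). SUPT16H of the same list was lower than in AI in IVD (-0.37 ± 0.12, adjusted p = 0.00816) but did not pass in IVF (0.14 ± 0.11, adjusted p = 0.336). Of 3 HMG proteins, 2 were lower in IVF than in AI and than in IVD, where 17.7% and 25.2% of all features were. They were HMGB2 at -1.09 ± 0.17 over AI (adjusted p = 2.32e-06) and HMGB1 at -0.73 ± 0.17 (adjusted p = 8.67e-04). HMGA1 was instead higher in IVF than in IVD by 0.90 ± 0.19 (adjusted p = 2.59e-04) and lower in IVD than in AI by -0.55 ± 0.21 (adjusted p = 0.0335).

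Of 4 other histone genes, 1 was lower in IVF than in AI and in IVD, where 17.7% and 25.2% of all features were. This was H2BC21, at -0.94 ± 0.33 over AI (adjusted p = 0.0225) and -1.06 ± 0.33 over IVD (adjusted p = 0.00768). None passed in IVD against AI. Of 10 other remodeler subunits, 4 were higher and none lower in IVF than in AI, where 19.9% and 17.7% of all features were. In IVD against AI 2 were higher and 2 lower, where 25.5% and 21% of all features were. In IVF against IVD 6 were higher and 2 lower, where 22.3% and 25.2% of all features were. The genes higher in IVF than in AI included the SWI/SNF subunit ARID1A at 0.63 ± 0.15 (adjusted p = 0.0013) and the ATPase INO80 at 0.63 ± 0.19 (adjusted p = 0.00751). TRIM28, the corepressor of KRAB zinc finger proteins, averaged 0.88 ± 0.38 in 15 IVF, -0.64 ± 0.32 in 14 IVD and 0.80 ± 0.33 in 14 AI embryos (SD). It was lower in IVD than in AI by -1.44 ± 0.13 (adjusted p = 9.85e-12), and the other 2 DNA methylation genes measured passed in none of the comparisons. Of all features, 21% were lower in IVD than in AI.

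Of 9 other histone methyltransferase genes, 4 were lower and 1 higher in IVD than in AI, where 21% and 25.5% of all features were. In IVF against IVD, 5 were higher and 2 lower, where 22.3% and 25.2% of all features were. In IVF against AI, 1 was higher and 2 lower, where 19.9% and 17.7% of all features were. With 9 genes these counts describe the genes and not a wider group. PRMT1, the main arginine methyltransferase, was lower in IVD than in AI by -0.86 ± 0.13 (adjusted p = 5.32e-07). CARM1, an arginine methyltransferase of H3, was lower in IVF than in IVD by -0.81 ± 0.12 (adjusted p = 2.19e-07). Against AI, CARM1 was lower in IVF (-0.48 ± 0.12, adjusted p = 0.00118) and higher in IVD (0.33 ± 0.12, adjusted p = 0.0217). Of 6 other Polycomb genes, 2 were lower in IVF than in AI and 1 was lower in IVD than in AI. Of all features, 17.7% and 21% were lower in these comparisons. None of the 6 was higher over AI. In IVF against IVD, 2 were higher (PHC2 and PHF1) and 2 lower (JARID2 and ASXL1), where 22.3% and 25.2% of all features were. PHC2 was lower in IVD than in AI (-0.71 ± 0.13, adjusted p = 1.05e-05). JARID2 and ASXL1 were lower in IVF than in AI (-0.52 ± 0.18, adjusted p = 0.0194, and -0.43 ± 0.13, adjusted p = 0.00997).

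Among 13 other genes of acetyltransferase complexes, 2 were higher and 2 lower in IVF than in AI, where 19.9% and 17.7% of all features were. In IVD against AI 3 were higher and 2 lower, where 25.5% and 21% of all features were. In IVF against IVD 1 was higher and 2 lower, where 22.3% and 25.2% of all features were. DMAP1, a TIP60 complex subunit, was lower than in AI in IVF (-0.72 ± 0.11, adjusted p = 1.44e-06) and in IVD (-0.61 ± 0.11, adjusted p = 1.4e-05). Among 9 sirtuin and deacetylase complex genes, 1 was lower and none higher in IVF than in AI. In IVD against AI 2 were higher and 1 lower, and in IVF against IVD 1 was higher and 4 lower. These counts are to be read against the shares of all features just given. SAP30 of the Sin3 complex was the 1 lower in both IVF and IVD than in AI (-0.51 ± 0.12, adjusted p = 0.00127, and -0.34 ± 0.13, adjusted p = 0.0227). Of 4 bromodomain genes, 1 was higher and 1 lower in IVD than in AI, where 25.5% and 21% of all features were. The corepressor TRIM24 was higher by 1.01 ± 0.15 (adjusted p = 9.03e-07), and ZMYND8 was lower (-0.58 ± 0.19, adjusted p = 0.0122). RIOX1, the other JmjC protein measured, was lower in IVD than in AI (-0.69 ± 0.18, adjusted p = 0.00168).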

How the data were processed

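Per the labels' protocols, embryo RNA was amplified linearly in 3 rounds and reference RNA in 2, and each of 43 embryos was hybridised to a pair of dye-swapped arrays. The values are log2 ratios deposited by the authors in 1 table of 16416 rows. No label gives their normalization or why 20.1% of cells hold no value. No spot intensities were used, and the number of arrays limits the precision.

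From each array the median of the 5558 rows complete over all arrays was subtracted. The sign of arrays with Cy3-labelled embryo cDNA was turned (both arrays of an embryo were anticorrelated in 43 of 43 embryos), and both were averaged, so that an embryo is 1 replicate. Rows needed a value on both arrays in at least 7 embryos of every group (10757 rows), and rows with the same single symbol in the platform annotation were averaged (6278 features). Group means were fitted in limma 3.58.1 (R 4.3.3) in 1 model over all embryos, two-sided, with Benjamini-Hochberg adjustment over all features and a threshold of 0.05. Every adjusted p is from this method, and from this fit unless an alternative or a clone is named. Those come from fits of their own, to the values, rows, embryos or blocks of the alternative, or to clones. The code was tested on simulated data. Whether embryos came from separate dams is not stated, and IVD embryos 12_1 to 12_4 share a number, so embryos may not be independent. The p-values rest on the spread between these embryos. With 12_1 to 12_4 as 1 embryo, 13 of 14 members passed again for IVD over AI, without KDM2B. For IVF over IVD 19 of 20 did, without CHD3. H2AJ, H2AZ1 and HDAC2 then also passed for IVD over AI, and H2AJ for IVF over AI. No pair of embryos of a group looked like a duplicate (highest correlation of deviations 0.384).

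Alternatives changed the scaling, the filter, the dye orientation, the embryos in the fit and blocks for embryo number or dye-bias cluster. The members and lists were chosen with earlier results of these data known. Every member may be named. Full statistics go to the 8 largest differences in each direction per comparison, and of each further chromatin list up to 3 genes per comparison could be named. Figures were drawn with matplotlib 3.10.9. No clone was mapped, so no coordinates or sequences are given.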

Additional observations from a re-analysis of the deposited data

How the results depend on the processing

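H2AZ1, H2AZ2, HAT1 and CHD4 passed in every alternative that tested them for IVF over AI. So did 6 of 14 members for IVD over AI (CHD3, CHD4, HDAC1, KAT14, SMARCA5 and ZMYND11). For IVF over IVD, 11 of 20 did (ASF1A, H2AC20, H2AZ1, H2AZ2, H3-3A, HAT1, HDAC2, KAT14, KDM2B, MPHOSPH8 and SMARCA5). CHD3, CHD4, KAT14 and MPHOSPH8 had no row measured in every embryo, so that alternative did not test them. No alternative by dye-bias cluster was run for IVF over IVD. There, 13 of 15 IVF and 0 of 14 IVD embryos fell in 1 Ward cluster, and the part of dye bias in this comparison was not tested by cluster. Members past the threshold kept their sign in all alternatives except KAT6B, which was 0.11 for IVF over IVD with the embryo in Cy5 (adjusted p = 0.701). In IVF over AI, 3 members were higher, against 5, with the values as given, with rows measured in every embryo, with the embryo in Cy5, with only the 2 groups in the fit, with the replicate block, with Ward clusters as a block and within the shared Ward cluster. Average-linkage clusters as a block, chosen after seeing the data like the fits within a cluster and without IVF embryo 7, left 5 called (1 higher, 4 lower). In IVD over AI, against 7 and 7, there were 11 higher and 4 lower members with the values as given, 4 higher with the embryo in Cy3 and within the IVD cluster, and 3 lower and 8 in all with rows measured in every embryo, where 18 members remain. In IVF over IVD, against 7, there was 1 higher with the values as given and there were 4 with rows measured in every embryo, and the F-test then called 15. Embryo numbers did not pair embryos across groups (mean correlation of deviations -0.0038 over 21 pairs, range -0.174 to 0.163). With the number as a replicate block, 11 members passed for IVF over AI and 8 for IVD over AI (4 higher, 4 lower). Over all features, IVF over AI called 2365, against 1325 with values as given, 1571 with rows in every embryo, 1332 within the cluster and 504 with the average-linkage block. Rows in every embryo gave 1770 for IVD over AI, against 2921, and 1880 for IVF over IVD, against 2986. Some of these alternatives used smaller sets of rows or embryos, and the cause of the shifts was not tested. Clone by clone, 0 of 4 members with more than 1 clone differed in sign for IVF over AI or IVD over AI. Calls could differ between clones. For IVD over AI the H2AZ1 clones gave 0.09 (adjusted p = 0.513) and 0.33 (adjusted p = 0.0383). For IVF over IVD the RBBP4 clones gave 0.25 (adjusted p = 0.0482) and 0.12 (adjusted p = 0.415).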

Other observations

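The median SD of the 34 chromatin genes was 0.465 in IVF, 0.346 in IVD and 0.368 in AI, and over all 6278 features it was 0.423, 0.326 and 0.399. Single members varied: 9 of 34 had their largest SD in IVF and their smallest in IVD, and 25 had another order. The spreads were not tested.

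With rows kept at 2 embryos of every group, 6 more members were tested (CBX6, CBX8, HDAC5, SMARCAD1, SMARCC1 and SMARCC2). HDAC5, a class IIa deacetylase, was the 1 that passed, lower in IVD than in AI by -0.67 with few AI embryos behind it (adjusted p = 0.0314). In the 34 member clones with 2 spots, the median absolute gap between the spots of a clone was 0.092 on the log2 scale (0.04 to 0.21).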
